A study of Rattus norvegicus with 12 samples.

Results

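Cells of the rat hepatoma line FaO were followed through 72 h of exposure to α-lipoic acid (α-LA), and the data described here are those of the last harvest, 72 h, set against the harvests at 42 and 48 h. These were 3 of the 12 Illumina arrays of the series, 1 array per time. The cells of all 3 had received 500 µM α-LA daily in medium with 2% FCS, and RNA of 3 wells had been pooled for each array. The other arrays compared were 3 of untreated FaO cells (Control_1, Control_2 and Control_3), which gave the baseline, and the α-LA arrays of 6, 18, 24 and 30 h, which gave the earlier course. The remaining arrays, of cells given thapsigargin for 18 and 24 h, entered no comparison but counted in the choice of probes. The line was grown in 10% FCS. The hours at which the control cells were harvested, whether they too had been moved to 2% FCS and the hours between the last dose and each harvest are not given in the sources used here. FaO is 1 established line, and since no source states whether the 3 controls were separate cultures, the spread between them may be technical.

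Values are normalized signals, the brightness of the beads that carry a probe, and a probe was included when its signal was at least 150 on at least 3 of the 12 arrays, which held for 9193 of 22523 probes. These represent 8163 named genes, each followed through its brightest probe. All differences are log2(72 h) minus the mean log2 of 42 and 48 h unless stated otherwise. A probe was called changed when this difference was at least 2-fold and the 72 h signal lay outside the range of the 42 and 48 h signals. Background is still contained in the signals, so that folds of dim probes are understated. A fold between 42-48 h and 72 h is a bound where the lower side was under 150. For a fall this means the 72 h signal, and for a rise both the 42 and 48 h signals. The number of arrays limits the precision. With 1 array at 72 h no test of this difference is possible, and none of the differences from 42-48 h to 72 h given below has a p-value. For the earlier step, 42-48 h against the controls, limma was used. Its p-values were adjusted over all 9193 probes by the method of Benjamini and Hochberg. The 72 h array took no part in that fit. The single arrays of 42 and 48 h stood in as replicates of 1 group, and earlier α-LA times were likewise joined in 1 group. The SE and p-values of this step therefore do not measure the spread between separate cultures harvested at the same α-LA time. A probe that read high by error at 42 and 48 h would appear both as raised there and as lower at 72 h, since both comparisons use those arrays, and the changes against control at both times share the controls.

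When proteins fail to fold in the endoplasmic reticulum (ER), the cell starts the unfolded protein response (UPR) through the sensors PERK, IRE1 and ATF6. PERK phosphorylates eIF2α and so favours the translation of ATF4, which drives Ddit3 (GADD153/CHOP), Trib3 and Ppp1r15a (GADD34), while cleaved ATF6 and spliced XBP1 drive the ER chaperones and the factors of ER-associated degradation (ERAD). Liver cells carry a large secretory load and are known for a strong response of this kind.

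ATF6 with its partners is known to bind the ER stress response elements ERSE and ERSE-II. ERSE was searched as CCAAT and CCACG with 9 bases of any kind (N) between them, and ERSE-II as ATTGG and CCACG with 1 base N between them, on both strands and with overlaps allowed. In the 33469 RefSeq promoters of build GRCr8, each from 250 bases before to 50 bases after an annotated start, ERSE was present in 22 (0.0657%) and ERSE-II in 17 (0.0508%). The promoters below are shown as examples of ER stress genes with a match that were below both 42 and 48 h at 72 h, and of 1 with a match that was not. They were chosen after the values had been seen, and other genes with a match are given further on. Hspa5, Hsp90b1, Creld2 and Herpud1 were lower at 72 h, and the 72 h signal of Xbp1 lay between those of 42 and 48 h. Capitals mark the matches, read 5′ to 3′ on the strand of the gene. A match is a description of the letters and not a binding site shown by experiment.
Hspa5 (GRCr8, chr3:38452766-38453065, + strand, ERSE): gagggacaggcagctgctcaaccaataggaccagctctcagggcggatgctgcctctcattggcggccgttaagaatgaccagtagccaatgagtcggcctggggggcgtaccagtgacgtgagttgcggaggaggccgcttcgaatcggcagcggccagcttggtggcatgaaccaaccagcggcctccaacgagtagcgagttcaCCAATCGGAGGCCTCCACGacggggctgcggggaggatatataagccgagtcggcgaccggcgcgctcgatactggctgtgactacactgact
Hsp90b1 (GRCr8, chr7:23012244-23012543, - strand, ERSE at 2 places): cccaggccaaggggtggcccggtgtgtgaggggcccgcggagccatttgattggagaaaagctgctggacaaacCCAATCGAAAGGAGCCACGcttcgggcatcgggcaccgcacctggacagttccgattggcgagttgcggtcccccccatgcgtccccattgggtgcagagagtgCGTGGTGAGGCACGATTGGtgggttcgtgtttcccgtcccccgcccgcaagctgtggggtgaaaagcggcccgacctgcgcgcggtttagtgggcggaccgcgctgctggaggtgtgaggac
Creld2 (GRCr8, chr7:121789134-121789433, + strand, ERSE reversed): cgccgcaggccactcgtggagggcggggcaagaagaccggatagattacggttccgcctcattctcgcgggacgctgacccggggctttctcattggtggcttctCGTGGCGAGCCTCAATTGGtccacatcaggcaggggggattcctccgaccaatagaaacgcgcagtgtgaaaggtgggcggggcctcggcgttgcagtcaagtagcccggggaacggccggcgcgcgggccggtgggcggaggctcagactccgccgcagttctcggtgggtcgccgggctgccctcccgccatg
Herpud1 (GRCr8, chr19:10614658-10614957, - strand, ERSE-II): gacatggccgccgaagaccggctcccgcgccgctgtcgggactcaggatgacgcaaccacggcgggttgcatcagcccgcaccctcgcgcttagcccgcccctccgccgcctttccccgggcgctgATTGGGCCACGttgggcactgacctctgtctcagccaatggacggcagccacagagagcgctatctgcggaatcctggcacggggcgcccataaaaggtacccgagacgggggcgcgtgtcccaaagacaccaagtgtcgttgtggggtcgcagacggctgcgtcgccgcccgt
Xbp1 (GRCr8, chr14:84604373-84604672, + strand, ERSE): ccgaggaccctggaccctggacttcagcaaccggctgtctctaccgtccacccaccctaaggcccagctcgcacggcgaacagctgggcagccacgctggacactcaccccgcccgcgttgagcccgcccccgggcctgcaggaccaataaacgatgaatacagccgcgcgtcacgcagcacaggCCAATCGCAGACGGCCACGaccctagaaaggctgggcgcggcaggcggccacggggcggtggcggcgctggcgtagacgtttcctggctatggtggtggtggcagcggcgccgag

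Of 9193 probes, 15 (0.163%) were at least 2-fold higher at 72 h and 44 (0.479%) at least 2-fold lower. At 1.5-fold these counts were 110 (1.2%) and 198 (2.15%), and after subtraction of a common background of 107, which enlarges the folds of dim probes, those at 2-fold were 129 and 251. Counted by gene, 11 of 8163 (0.135%) were 2-fold higher and 44 (0.539%) 2-fold lower, and the 72 h signal lay above both the 42 and 48 h signals in 40.3% of genes and below both in 37.8%. The median difference over all probes was 0.01. The quantile normalization of the table holds this median near 0, so a shift of all genes could not have been seen. As a yardstick of the spread between arrays, 42 and 48 h differed 2-fold at 4 probes, 42 and 72 h at 60, and 48 and 72 h at 71. Of the 15 and 44 probes, 11 and 32 were at least 2-fold different from 42 h alone and from 48 h alone. The controls differed from each other at 0 to 35 probes, with Control_1 apart from both others, and 30 and 42 h differed at 156. The 72 h array was thus nearer to 42 and 48 h than the 30 h array was to 42 h, and farther from them than they were from each other.

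The labels call the cells hepatocytes. Of 8 hepatocyte markers 6 were measured above the floor, with signals for albumin (Alb) between 13714 and 41631. None of the markers of stellate or endothelial cells passed the floor of 150, and of the macrophage and cholangiocyte lists 1 gene each was measured, Cd14 and Sox9, whose signals were at most 227. In bulk RNA a smaller number of cells of a kind and less RNA per cell cannot be told apart.

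**Figure D1:**
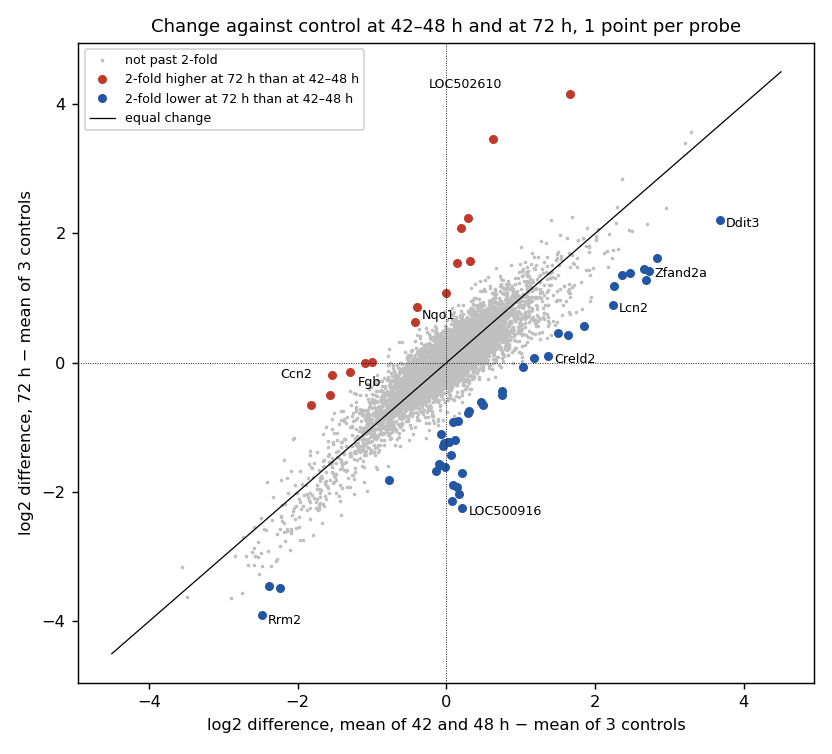
Each point is 1 of the 9193 probes, with the log2 difference of 42-48 h from the 3 controls on the horizontal axis and that of 72 h from the same controls on the vertical axis. Both axes share the controls, so points follow the line of equal change in part for that reason. The 44 blue probes (2-fold lower at 72 h) fall into a group raised at 42-48 h such as Ddit3 and Zfand2a, a group near 0 at 42-48 h such as LOC500916, and 4 cell cycle genes at the lower left. The 15 red probes (2-fold higher) hold genes lowered at 42-48 h such as Fgb and Ccn2, and loci such as LOC502610 that were high at 72 h.

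ER stress genes were among the 18 of the 44 lower probes that had been raised at 42-48 h. Ddit3, the transcription factor through which prolonged ER stress promotes apoptosis, had signals of 505, 679.5 and 604 on the 3 controls, 8213 at 42 h, 7038 at 48 h and 2741 at 72 h. All α-LA arrays from 18 h on lay above every control, and the 72 h signal was below those of 18, 24 and 30 h as well (3407, 4938 and 5164). The rise at 42-48 h was 12.8-fold (log2 3.68 ± 0.18 SE, adjusted p = 4.6e-07 by limma), and the signal at 72 h was 2.77-fold lower than at 42-48 h while still 4.63-fold above the control mean.

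Ppp1r15a, a subunit of the phosphatase that removes the phosphate from eIF2α, read 1106 and 1141 at 42 and 48 h and 427 at 72 h, with controls of 154, 178 and 196. Trib3, a pseudokinase induced by ATF4 and CHOP, read 1836 and 1756 at 42 and 48 h and 779.8 at 72 h, with controls of 251, 301 and 306. Atf3, a stress-induced transcription factor, read 752 and 836 at 42 and 48 h and 376 at 72 h, with controls of 136, 151 and 143. In each of these genes the 72 h signal lay between the controls and the 42 and 48 h signals, with differences of -1.40, -1.20 and -1.08.

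The transcription factor above them changed less. Atf4 had signals of 5606 and 5349 at 42 and 48 h and 4615 at 72 h, with controls of 3213, 2994 and 2841, a difference of -0.25, and 71.4% of its log2 change against control was still present. Eif2ak3, which encodes PERK itself, was lower by more (-0.69), with signals of 426 at 72 h after 687 and 688 at 42 and 48 h, against 329, 277 and 326 on the controls. Its list, the UPR sensors and transcription factors, did not share this difference. Of 10 measured genes 6 were higher and 4 lower at 72 h, with a median of 0.07, and Eif2ak3 alone passed 1.5-fold. Not all of the genes known to follow ATF4 and CHOP moved with Ddit3. Gdf15, a secreted stress hormone, stayed high with 3109 and 3248 at 42 and 48 h and 3626 at 72 h, with controls of 288, 356 and 396, so that its difference was 0.19. Creb3l3, an ER-bound transcription factor of hepatocytes, also read as high at 72 h (1021) as at 42 and 48 h (1061 and 837), against controls of 178 to 208.

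In the list of the PERK, ATF4 and CHOP branch, 14 of 19 measured genes were lower at 72 h than at 42-48 h and 5 higher, beside 48.9% and 51.1% of all 8163 genes. At 1.5-fold, 6 were lower and 0 higher, and among all genes 2.39% and 1.26% passed that fold. The median difference of the list was -0.19, against 0.01 for all genes. Of its 12 genes that rose at 42-48 h by limma, 9 had a 72 h signal below both late arrays and all 12 were still above every control. Among all 1596 genes that rose at 42-48 h (19.6% of 8163), 56.1% lay below both arrays at 72 h and 93% stayed above the controls.

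The ER chaperones as a list were lower at 72 h, with a median difference of -0.33. Hspa5 (BiP, GRP78), the main chaperone of the ER lumen and the keeper of the UPR sensors, had signals of 11820, 10352 and 9402 on the 3 controls, 30759 at 42 h, 27029 at 48 h and 15732 at 72 h. Hsp90b1 (GRP94), the HSP90 of the ER, read 13921 and 12164 at 42 and 48 h and 7580 at 72 h, with controls of 6398, 4773 and 5410. Both stood 1.83-fold and 1.72-fold lower at 72 h, and the 72 h signals were above every control but close to those of 24 h (18193 and 6983).

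Creld2, an ER protein that handles disulfides, had signals of 1652, 1534 and 1526 on the 3 controls, 4555 at 42 h, 3604 at 48 h and 1683 at 72 h. Its rise was limited to 42 and 48 h, since at 18, 24 and 30 h it read 893, 1229 and 1277, below every control. At 72 h 7.34% of its log2 change was left. Dnajb9 (ERdj4), a co-chaperone that hands misfolded proteins to BiP, kept more of it (57.2%), with 807 at 72 h after 1911 and 1835 at 42 and 48 h, against 257, 269.7 and 259.5 on the controls. Manf, a secreted ER protein induced by stress, and the disulfide isomerase Pdia4 (ERp72) had differences of -0.79 and -0.53.

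Among 23 measured chaperones and folding factors, 21 were lower and 2 higher at 72 h, 9 were at least 1.5-fold lower and 1, the exchange factor Sil1, at least 1.5-fold higher. The shares over all genes were 48.9% lower, 2.39% lower by at least 1.5-fold and 1.26% higher by at least 1.5-fold. The list median against control was 0.02 at 30 h, 0.64 at 42 h, 0.60 at 48 h and 0.29 at 72 h. Of 13 members that rose at 42-48 h, 12 lay below both late arrays at 72 h, 10 above every control, and 7 above every array of 18 to 30 h (45.3% among all genes raised at 42-48 h). Among members changed by at least 1.5-fold at 42-48 h, a median of 37.4% of the log2 change was left, against 57.4% in the PERK, ATF4 and CHOP branch and 83% in all such raised genes. The calreticulin gene Calr and P4hb (PDI) were not raised at 42-48 h and differed by -0.04 and -0.24 at 72 h.

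**Figure D2:**
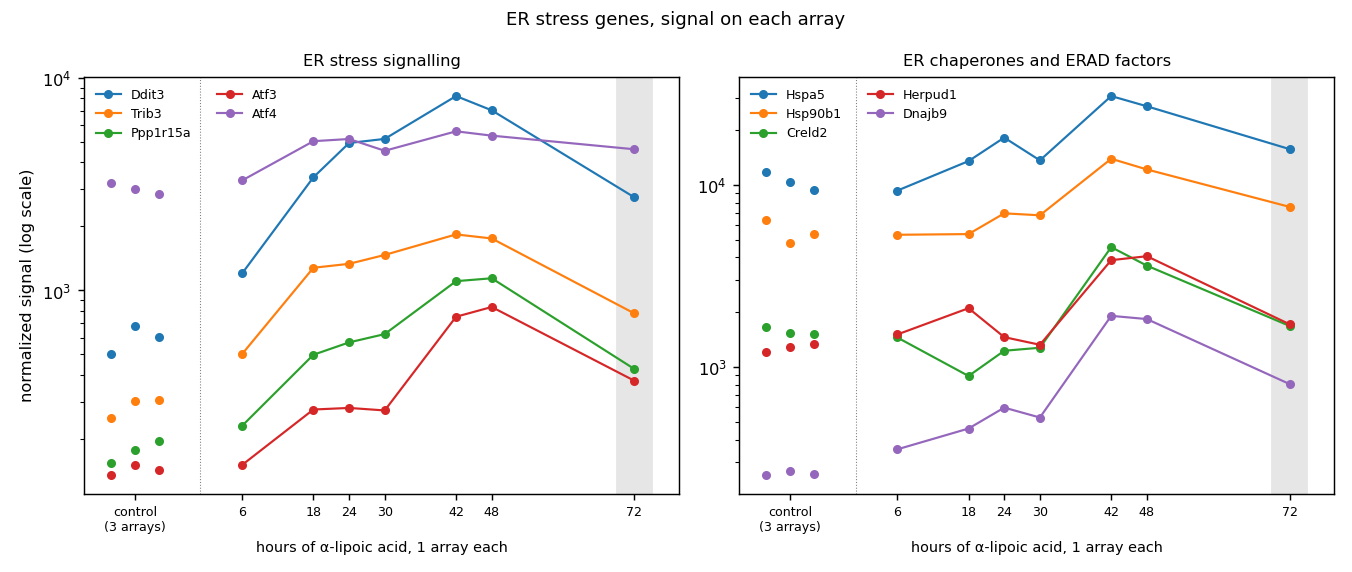
Normalized signal on a log scale for 5 genes of ER stress signalling (left) and 5 ER chaperones and ERAD factors (right) on each array, with the 3 controls as separate points and 1 array per time joined by lines. The shaded band marks 72 h. Every gene shown peaked at 42 or 48 h and was lower at 72 h, with Atf4 lower by the smallest amount and Creld2 back to near the controls.

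ERAD factors followed in part. Herpud1, an ER membrane protein that brings substrates to the ubiquitin ligases, read 3864 and 4062 at 42 and 48 h and 1718 at 72 h, with controls of 1206, 1282 and 1338, a 2.31-fold lower signal at 72 h with 26.4% of the log2 change left. Syvn1 (HRD1), the ubiquitin ligase itself, read 1727 at 72 h, below every control (2255, 2312 and 2269). It had been as low at 6, 18, 24 and 30 h (1705, 1727, 1828 and 1779), and above the controls only at 42 and 48 h (2841 and 2907). Of 15 ERAD genes, 10 were lower and 5 higher, and 3 passed 1.5-fold downwards, with a median of -0.09. Over all genes 48.9% were lower and 2.39% passed that fold. Saraf, an ER membrane protein that limits store-operated calcium entry, read 2055 at 72 h after 4501 and 3980 at 42 and 48 h, against 1501, 1529 and 1466 on the controls. Zfand2a, a zinc finger protein that works with the proteasome under stress, read 2815 at 72 h after 7070 and 6730 at 42 and 48 h, against 940.2, 1197 and 1022 on the controls.

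The promoters can be set beside these values. ERSE or ERSE-II was found in the promoters of 19 measured genes, of which 18 had a difference below 0, beside 48.9% of all 8163 genes. Of the 19, 7 were at least 1.5-fold lower, and the median was -0.33. Several of the 18 hardly differed, such as Cdc27 (-0.0047), Nucb1 (-0.04) and Hnrnpa3 (-0.06). Hspa5, Hsp90b1, Canx, Creld2 and Herpud1 are also counted in the lists above, so the promoter set is not separate from them. The median of this set and that of the chaperone list are the same value, that of Canx (-0.33). In all 6207 measured genes with a promoter the median was 0.01 and 2.05% were at least 1.5-fold lower. Of the 19, 11 rose at 42-48 h by limma, and their median difference was -0.64, against -0.13 in all 1147 raised genes with a promoter. The matches lay from base -43 to -25 in Hspa5, from -176 to -158 and from -72 to -54 in Hsp90b1, from -145 to -127 in Creld2, from -124 to -114 in Herpud1 and from -65 to -47 in Xbp1, counted from the annotated start as 0. A match did not go with a clearly lower signal in every gene. Xbp1 and Calr, which both carried ERSE, are counted among the 18 but differed by only -0.05 and -0.04, and Ttll10 was above 0 (0.06). Xbp1 had signals of 4242 and 4596 at 42 and 48 h and 4255 at 72 h, with controls of 5606, 4650 and 4650. Zfand2a carried ERSE from base -170 to -152.

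A number of raised genes from other families were also lower at 72 h. The inflammatory genes Lcn2, which encodes an iron-chelator-binding lipocalin, and Cxcl1, a neutrophil chemokine, differed by -1.35 and -1.26. Cxcl1 read 1510 and 1559 at 42 and 48 h and 642 at 72 h, with controls of 776, 987 and 981, so that its 72 h signal was below every control, whereas Lcn2 stayed above them (247 at 72 h against 130 to 136). At 6, 18, 24 and 30 h Cxcl1 had also been below every control (478, 687, 533.5 and 595). Nfil3, a bZIP repressor, differed by -1.06, Casp4, an inflammatory caspase, was 2.01-fold lower (under 2-fold against the 48 h array alone), and Gsto2, an omega-class glutathione transferase, differed by -1.29. In the immediate early list 19 of 27 genes were lower and 5 passed 1.5-fold downwards, among them the phosphatase gene Dusp1 (-0.92) and the antiproliferative gene Btg2 (-0.89). The difference of greatest size in that list went the other way, in Ccn2 (1.34), the 1 member past 1.5-fold upwards. In the glucocorticoid-responsive list 13 of 16 were lower, 4 of them by at least 1.5-fold. Among all genes 48.9% were lower and 2.39% were lower by at least 1.5-fold.

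Return to the control range was counted for all probes. Of 9193 probes, 283 (3.08%) rose at least 2-fold at 42-48 h with an adjusted p below the limma threshold of 0.05. At 72 h 4 of them (1.41%) had reached the range of the controls or passed it, 180 (63.6%) lay between that range and the late arrays, 41 (14.5%) lay within the range of 42 and 48 h, and 58 (20.5%) were higher still. The count of 4 was 2 without the 42 h array, 1 without Control_2 and 2 without Control_3, and with the common background subtracted it was 22 of 639 raised probes. The median share of the log2 change left at 72 h was 81.8%, with quartiles of 58.8% and 102%. The 4 that returned were Siah2, a ubiquitin ligase, Gnpnat1, an enzyme of UDP-N-acetylglucosamine synthesis, Rasl11a and Tmem121b. Siah2 read 609.7 and 626 at 42 and 48 h and 309.8 at 72 h, with controls of 305, 324 and 284, 1.99-fold lower at 72 h and so just outside the 2-fold limit, while Casp4 lay just inside it at 2.01-fold.

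For the lowered probes the counts were different, and this difference was not tested. Of 378 probes (4.11%) that fell at least 2-fold at 42-48 h, 2 (0.529%), Fgb and Slc20a2, had reached the control range at 72 h, 137 (36.2%) lay between, 75 (19.8%) were in the range of 42 and 48 h, and 164 (43.4%) were lower still, with a median of 104% of the change left. With the common background subtracted, 19 of 777 had reached it.

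Cell cycle genes were among those that were lower still. Rrm2, the small subunit of ribonucleotide reductase, read 6072, 3610 and 4039 on the 3 controls, 588 at 42 h, 1088 at 48 h and 299 at 72 h. The 42 and 48 h arrays differed from each other here, and against the 42 h array alone the 72 h signal was under 2-fold lower. Spc24, a kinetochore protein, had signals of 749.7 and 1182 at 42 and 48 h and 396 at 72 h, with controls of 3706, 4888 and 4873. Pclaf, which binds the replication clamp PCNA, and Cks1b, which binds cyclin-dependent kinases, differed by -1.07 and -1.04, and Rrm2 stood 2.67-fold lower at 72 h than at 42-48 h.

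Of 45 genes for DNA replication and S phase, 43 were lower at 72 h than at 42-48 h, 4 of them by at least 1.5-fold, with a median of -0.32. In the list of mitosis and G2, 44 of 45 genes were lower, 7 by at least 1.5-fold, with a median of -0.29. For all genes the shares were 48.9% lower and 2.39% lower by at least 1.5-fold. Most of the individual differences were below the 1.5-fold limit, but the list medians moved with the setting. That of G2 and mitosis was -0.51 when 72 h was set against 48 h alone, -0.15 against 42 h alone and -0.59, just past 1.5-fold, with the common background subtracted, where that of S phase was -0.53. Against control, the S phase median was -1.45 at 42 h, -1.37 at 48 h and -1.88 at 72 h, and that of G2 and mitosis was -2.02, -1.55 and -2.20. The 72 h signal was below that of every other α-LA array in 35 and 31 of the 45 genes, beside 14.7% of all genes. Examples are Nuf2, a kinetochore protein, with 759 and 1169 at 42 and 48 h and 536 at 72 h, with controls of 6655, 6371 and 6021, and Mcm7, a subunit of the replicative helicase, with 1403 and 2082 at 42 and 48 h and 991 at 72 h, with controls of 7017, 6922 and 6086.

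**Figure D3:**
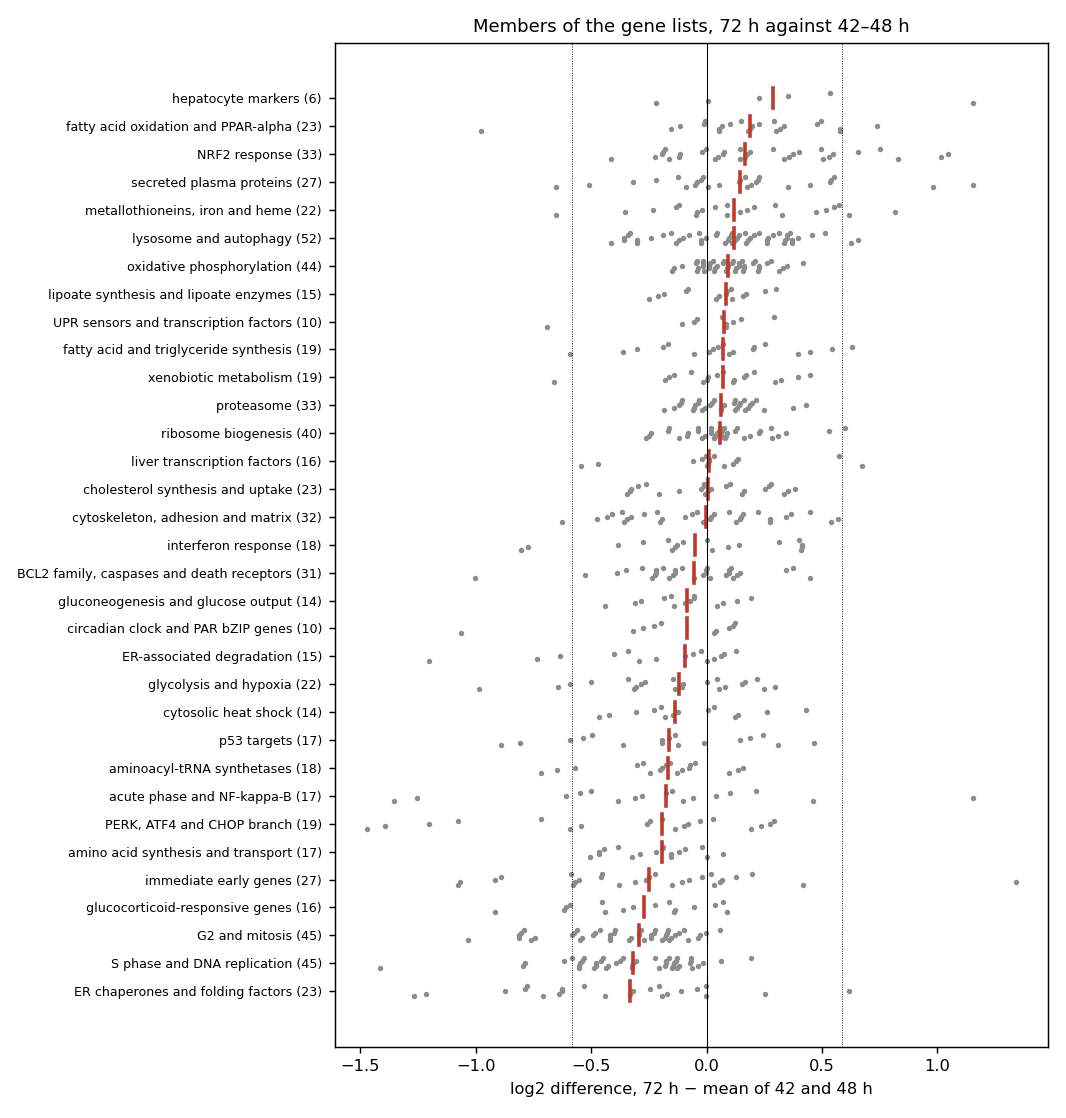
Each grey point is 1 measured gene of a list, placed at its log2 difference, 72 h minus the mean of 42 and 48 h, and red bars are list medians. Numbers in brackets give the measured genes, dotted lines mark 1.5-fold, and lists with at least 6 measured genes are drawn. The medians ran from -0.33 in ER chaperones to 0.29 in the hepatocyte markers, and the 2 cell cycle lists lay almost wholly below 0.

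Genes that were higher at 72 h included hepatocyte products. Fgb, the β chain of fibrinogen, had signals of 3572, 3228 and 2879 on the 3 controls, 1372 at 42 h, 1249 at 48 h and 2910 at 72 h. It was 2.22-fold higher at 72 h than at 42-48 h and lay within the control range, after a fall at 42-48 h of log2 -1.30 ± 0.22 SE (adjusted p = 0.000867 by limma). Apoe, the apolipoprotein E gene, read 7502 and 7046 at 42 and 48 h and 14361 at 72 h, with controls of 14182, 12588 and 10653, above every control at 72 h. Alb read 18285 and 13714 at 42 and 48 h and 22943 at 72 h, with controls of 41631, 33161 and 35866, so that 55.9% of the log2 change remained.

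The other plasma proteins did not all follow. Of 27 measured genes, 17 were higher and 10 lower at 72 h, beside 51.1% and 48.9% of all genes, with a list median of 0.14. Of the 15 that fell at 42-48 h, 9 lay above both late arrays at 72 h (51.6% among all 1532 lowered genes) and 13 were still below every control (91.8%). Ttr, the transthyretin gene, differed by 0.01 and stayed at 99.7% of its log2 change, the carrier protein Gc (-0.32) and the protease inhibitor Serpina1 (-0.22) were lower still, and Hpx, the heme-binding hemopexin, was 1.57-fold lower than at 42-48 h. The liver transcription factor gene Onecut1 (HNF6) read 1429 and 1400 at 42 and 48 h and 2255 at 72 h, with controls of 3980, 3694 and 3635, between the late arrays and the controls.

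Detoxification enzymes were also among the higher genes. Nqo1, the quinone reductase that is a standard target of NRF2, read 5857, 7372 and 6276 on the 3 controls, 4590 at 42 h, 5122 at 48 h and 10024 at 72 h. The 72 h signal was above all controls, and at 6 h, the first time measured, it was also high at 10352. At 42-48 h it was not called different from the controls (adjusted p = 0.0906 by limma). Gsta2, an alpha-class glutathione transferase, read 3399, 3531 and 3242 on the 3 controls, 1778 at 42 h, 1616 at 48 h and 3427 at 72 h, which is a return from a fall to about the control level. Against the 48 h array alone Nqo1, and against the 42 h array alone Gsta2, was under 2-fold higher. The related Gsta4 and the epoxide hydrolase Ephx1 differed by 0.83 and 0.75.

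In the NRF2 list 23 of 33 genes were higher at 72 h and 5 passed 1.5-fold upwards, with a median difference of 0.17. All genes together had 51.1% higher and 1.26% past 1.5-fold upwards. The list median against control was -0.03 at 48 h and 0.40 at 72 h, and 19 genes were above every control at 72 h, beside 40.7% of all genes. Its members raised most at 42-48 h took another course. Hmox1, heme oxygenase, read 1548 and 1370 at 42 and 48 h and 1338 at 72 h, with controls of 386, 347 and 347 and thus stayed high, and Sqstm1 (p62) differed by -0.42.

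**Figure D4:**
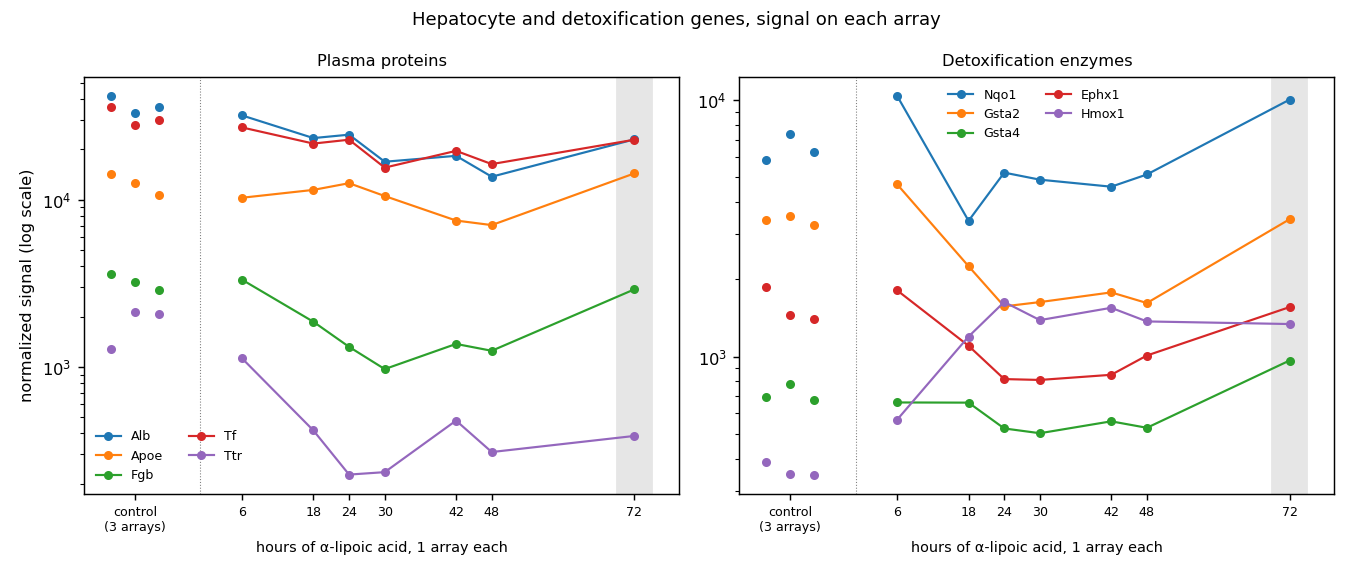
Normalized signal on a log scale for 5 plasma protein genes (left) and 5 detoxification enzymes (right) on each array, with the 3 controls as separate points, 1 array per time joined by lines and 72 h shaded. Fgb, Apoe, Nqo1, Gsta2, Gsta4 and Ephx1 were higher at 72 h than at both 42 and 48 h, while Ttr stayed low and Hmox1 stayed high.

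Further genes that had fallen at 42-48 h and were at least 2-fold higher at 72 h were Ccn2, a matricellular growth factor, with 136 and 151 at 42 and 48 h and 364 at 72 h, with controls of 398, 415 and 434, Car2, a carbonic anhydrase, with 2246 and 2218 at 42 and 48 h and 5011 at 72 h, with controls of 9274, 6983 and 7475, the methanethiol oxidase Selenbp1 and the phosphate transporter Slc20a2. The 72 h signals of Slc20a2 (1175, controls 1145 to 1215) reached the control range, and those of Ccn2 and Car2 stayed below it. Ccn2 was near the floor at 42 and 48 h, where low signals compress a fold. Kng2, a kininogen, and Plaat3, a phospholipase and acyltransferase, were high at 72 h only, but their 42 and 48 h signals differed (336 and 187 for Kng2, 374 and 261 for Plaat3), and against the 42 h array alone both were under 2-fold higher.

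Smaller differences were seen in lists of mitochondrial and lysosomal genes, in each of which some members were lower. Of 44 genes of oxidative phosphorylation, 33 were higher at 72 h with a median of 0.09 and 0 past 1.5-fold, and of 23 genes of fatty acid oxidation 18 were higher with a median of 0.19. Echs1, the mitochondrial enoyl-CoA hydratase, read 1224 and 1197 at 42 and 48 h and 2018 at 72 h, with controls of 3270, 2532 and 2697. The difference of greatest size in that list went the other way, in Acot2, a mitochondrial acyl-CoA thioesterase (-0.98), with 473 and 487 at 42 and 48 h and 244 at 72 h, with controls of 132, 126 and 119.9. Of 52 lysosomal and autophagy genes, 34 were higher with a median of 0.12 and 2 past 1.5-fold upwards. These counts stand beside 51.1% higher and 1.26% past 1.5-fold upwards among all genes. Ctsd (cathepsin D) and Asah1 (acid ceramidase), both raised at 42-48 h, were higher still by 0.51 and 0.46, whereas in cholesterol synthesis 12 genes were higher and 11 lower, with a median of 0.01.

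The changes seen at 72 h and not at 42-48 h lay mostly in loci without an annotated gene. The arrays of 6 to 30 h took no part in this class. Of the 44 probes that were 2-fold lower, 22 (0.239% of 9193) had not been called at 42-48 h and lay outside the control range at 72 h. They were Id1, an inhibitor of basic helix-loop-helix factors, Egr1, an immediate early zinc finger factor, and 20 probes that the study's gene table names only by provisional LOC symbols, which the annotation used here does not hold. Id1 had signals of 832, 1040 and 987 on the 3 controls, 898 at 42 h, 823 at 48 h and 296 at 72 h, and those of 18 to 30 h were 841 to 1090, so that 72 h was the lowest of the series of times. Egr1 read 273 at 72 h after 651 and 503 at 42 and 48 h, against 386, 409 and 453 on the controls. Its course was uneven before that, with 263 at 6 h, below every control and below 72 h, and 1135 at 18 h. Its low signal was therefore not particular to 72 h. In the other direction there were 6 such probes (0.0653%), those of Nqo1, Plaat3, Kng2 and LOC360941 and 2 probes without a name. With the common background subtracted these counts were 118 lower and 40 higher.

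Of 705 tested probes with such provisional names, 20 (2.84%) were 2-fold lower and 2 were higher, with a median of -0.01. Over all 9193 probes the shares were 0.479% lower and 0.163% higher. The names come from a gene table whose genes the study had selected on these same arrays, so the 705 are not a set chosen apart from these values. LOC500916 read 819, 798 and 953 on the 3 controls, 1032 at 42 h, 938 at 48 h and 179.7 at 72 h, and LOC499531 read 1226 and 1186 at 42 and 48 h and 259 at 72 h, with controls of 1170, 1091 and 1165. These 20 had signals of 245 to 1306 on the 9 control and α-LA arrays other than 72 h and of 126 to 449.8 at 72 h, each below all 9. At 72 h 9 of them were under 150, so that their differences are bounds, for example at least 3.95-fold for LOC498669. For some, such as LOC498644 with 803 and 382 at 42 and 48 h, those arrays differed as well.

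A handful of probes of the same kind were high. LOC502610 read 153, 142 and 145 on the 3 controls, 354 at 42 h, 609.8 at 48 h and 2607 at 72 h, having stood at 175, 163 and 192 at 18, 24 and 30 h, so that it was higher on each array from 42 h on and at least 17.4-fold above control at 72 h, taken against the floor of 150. LOC360941 read 1740 and 2628 at 42 and 48 h and 7918 at 72 h, with controls of 1953, 1914 and 1738. The probe ILMN_1359109, which has no gene name in the sources used here, read 134 and 306 at 42 and 48 h and 1451 at 72 h, with controls of 136, 118 and 143, and 3 more unnamed probes were 2-fold higher. Whether these loci belong to transcripts with a common origin was not tested.

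**Figure D5:**
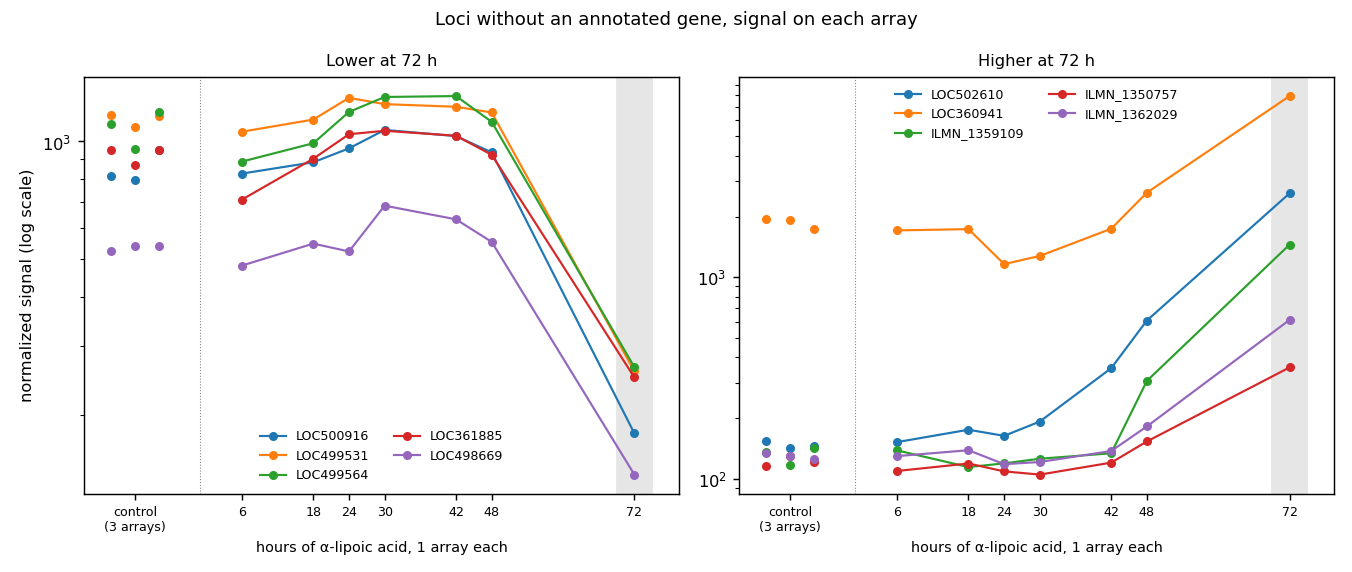
Normalized signal on a log scale for 5 loci with provisional names that were lower at 72 h (left) and 5 loci or unnamed probes that were higher (right), with the 3 controls as separate points, 1 array per time joined by lines and 72 h shaded. The loci on the left showed no such low signal up to 48 h and were lower at 72 h than on every other array drawn, and those on the right were higher at 48 h than at 42 h and higher again at 72 h.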

How the data were processed

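RNA of 12 FaO samples was hybridised to 1 Illumina array each. The intensity table deposited by the authors, on a linear scale, came from BeadStudio 3.0.19.0 followed by quantile normalization in BRB-ArrayTools. No source used here tells if background had been removed. The table before normalization was left out, because its 24 columns of values carry names that fit no array. Probes were named from the platform annotation (13793) or, names only, from the study's supplementary gene table (1681, of which 747 keep the printed symbol), and 7049 have no name. With 1 array at 72 h, differences were described by fold and range. The step from controls to 42-48 h was fitted on log2 intensities with lmFit and eBayes of limma 3.58.1 (R 4.3.3), with control, 18-30 h and 42-48 h as groups. Arrays of different times thus stood in as replicates within the α-LA groups. The code was tested on simulated data. The members, the 38 gene lists and the fold limits were chosen with earlier results of these data known, and support nothing on their own. Genes named are the 15 largest called differences in each direction, up to 4 members per list, up to 8 per class of return and the ER stress genes the study discusses. Further genes named were chosen after their values were seen: Gdf15, Spc24, Pclaf, Zfand2a, Gsto2, Saraf, Sil1, Gc, Serpina1, Ttr, Calr, Sqstm1 and the unnamed probes. Promoters are from RefSeq. Alternatives were other floors, folds, averages and arrays left out, and subtraction of a common background.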

Additional observations from a re-analysis of the deposited data

How the results depend on the processing

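No paired analysis was possible because each time has 1 array and replicate numbers are carried by the controls alone. Of 108 counts recomputed under alternative settings, 86 stayed within 1.5 times of the reported count. Of 1937 recomputed differences and list medians, 7 turned sign, all with a reported size of at most 0.12, for example the median of cholesterol synthesis and uptake (-0.0042 without 42 h). At a 1.5-fold limit the probes higher and lower at 72 h than at 42-48 h were 110 and 198, those higher and lower only at 72 h 25 and 44, those raised and back at the controls 30, those lowered and back 20, and those called by limma and past the fold at 42-48 h 855 and 915. After subtraction of a common background of 107 (the 5th percentile, with a floor of 16), the same counts at 2-fold were 129 and 251, 40 and 118, 22, 19, and 639 and 777. Such subtraction raises the fold of dim probes by construction. With a floor of 300 the probes raised and back were 2. With 1 array left out in turn, the probes higher at 72 h ranged from 14 to 22, those lower from 44 to 49, those higher only at 72 h from 4 to 8 and those lower only at 72 h from 18 to 24. Probes raised and back ranged from 1 to 4 (2 without 42 h, 1 without Control_2, 2 without Control_3), lowered and back from 2 to 3. The limma calls at 42-48 h ranged from 1044 to 1526 higher and from 1072 to 1486 lower, with 1044 higher without 42 h and 1081 without 48 h, and those past 2-fold from 265 to 290 and from 367 to 381. The cause of these changes was not tested, beyond the smaller number of arrays. Against 1 of the 42 and 48 h arrays alone, 16 of the 59 called probes were under 2-fold. Against 48 h they were Casp4, Egr1, Saraf, Nqo1 and 5 provisional loci, including LOC498644, and against 42 h Cks1b, Pclaf, Rrm2, Spc24, Gsta2, Kng2 and Plaat3. Background subtraction enlarged the difference of 64 of 162 named genes, 26 of them by over 1.5-fold, for example Ccn2 from 1.34 to 2.84. A 1.5-fold limit for the plain limma calls and a linear mean for the limma fit gave no separate value.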
